A study of Mus musculus with 2 samples.

Results

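The genes described here encode the guidance cues first known from the growing nervous system and the receptors that read them: semaphorins with their plexin and neuropilin receptors, ephrins with their Eph receptors, Slits with Robo receptors, and netrins with the receptors DCC and UNC5. Members were chosen by gene symbol, and for Ephb1, the one member with a pair of clusters, the cluster with the higher mean signal was kept. Transcript clusters, the sets of probes that the array summarises to 1 value, were kept when the platform listed a single symbol of these families. That gave 63 genes of the 30142 named genes on the array. Neuropilin 1, Sema4a and Ntn3 share their clusters with another symbol and fall outside the rule, and their values are given separately. RefSeq lists 67 genes whose symbols match the rule, and Ephb2 was not analysed here.

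RNA came from adipose-derived stromal cells, fibroblast-like progenitors that grow out of fat in culture, taken from the inguinal fat pad. The C57BL/6J mice were 6 to 10 weeks old and were either wild type or lacked Wisp1 in all tissues, and 1 sample of each genotype was put on 1 array. Both cultures were grown in DMEM with 15% fetal bovine serum. The knockout allele came from flanking exons 1 to 5 of Wisp1, on chromosome 15, with flox sites and mating to a line the labels call Cre-neo. The labels do not say how many mice gave cells to a sample or whether the wild-type mice carried any part of these alleles. Wisp1, now Ccn4, encodes a secreted matricellular protein, and the comparison asked which transcripts differed in cells without it.

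The values are log2 signals made by RMA, which corrects the background, makes the distributions of arrays alike and summarises the probes of a cluster. Every difference below is the knockout signal minus the wild-type signal on that scale, so -1 means a signal at 0.5 of the wild-type one. Without replicates no spread was known and no statistical test was run, so each difference compares these 2 arrays. A signal depends on its own probes, and the signal of one gene says nothing about its abundance relative to another. Genes whose mean signal reached 4.65, the median over named genes, are called tested, which means only that they entered the counts, and the others dim. There were 15072 tested genes.

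Guidance cues act at short or long range by binding receptors that restructure the actin skeleton and loosen or strengthen adhesion. Semaphorins bind plexins, which switch off small GTPases of the Ras and Rap type, and secreted class 3 semaphorins mostly need a neuropilin as co-receptor. Ephrins stay on the cell surface, so ephrin-Eph signalling needs cell contact and can run into both cells. Outside the nervous system these families take part in vessel growth, in the sorting of mesenchymal cells and in the making of bone and cartilage.

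Wisp1 itself had a signal of 7.79 in wild-type cells against 5.40 in knockout cells, 5.25-fold lower, and only 1 named gene had a lower difference. The label of the knockout array thus matched the signal of the targeted gene. Of 18 stromal progenitor markers 16 were matched, and 14 of these lay above 3.92, the 95th percentile of 1225 olfactory receptor genes, which served as a second floor. Among them were Thy1 (10.34 in wild type, 10.43 in the knockout) and Pdgfrb (10.38 and 10.49), while Dpp4 (2.79 on both arrays) and Nt5e (3.27 and 3.28) lay below that floor. A total of 2938 of the 65956 transcript clusters (4.45%) held the same value on both arrays to every deposited digit.

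Most guidance genes had nearly the same signal in both genotypes. Of the 63 members, 52 were tested and 11 were dim. No member differed by 2-fold, a size reached by 0.166% of tested genes. Past 0.5 on the log2 scale (1.41-fold) stood 2 of 52, netrin 4 and EphA2, both lower, while 1.97% of all tested genes were past it in either direction and 0.79% as lower. No member was higher by that much, as 1.18% of tested genes were. Past 1.5-fold was Ntn4 alone, where 1.18% of tested genes stood in either direction.

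The spread of the members was close to that of all genes. The tested members had a median difference of 0.01, against 0.03 for all tested genes, and a median size of difference of 0.08 against 0.09. Of the tested members 28 (53.8%) differed by less than 0.1, as did 53.0% of tested genes. In the tested set 30 members were higher and 21 lower (57.7% higher, where 56.9% of all tested genes were), and that split was 24 to 28 under quantile normalization (46.2%, all tested genes 48.4%) and 24 to 28 under loess centring (46.2%, all tested genes 50.2%). Outside the 5th to 95th percentile of tested genes (-0.24 to 0.29) lay 6 members, or 11.5%, where 10.0% of tested genes lie by construction. Those 6 were Ntn4, Epha2, Epha1 and Efna3 as lower and Plxnd1 and Efna1 as higher.

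**Figure D1:**
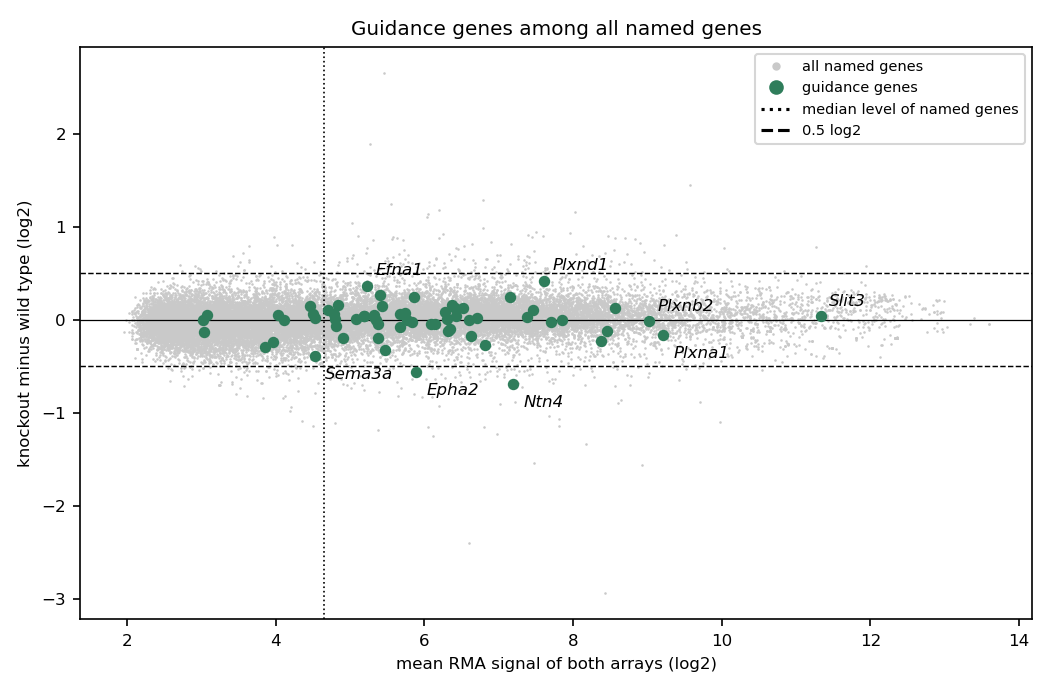
Each point is a named gene, placed by its mean RMA signal over both arrays (log2, horizontal axis) and by the knockout minus wild-type difference (log2, vertical axis), with the 63 guidance genes in green. The guidance genes lie within the cloud of all genes, with Ntn4 (-0.69) and Epha2 (-0.56) the only ones past 0.5.

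Promoter sequences are shown for the members with the largest differences, Ntn4 and Epha2 as lower and Plxnd1 and Efna1 as higher, so that their start regions can be set side by side. They come from RefSeq on GRCm38.p6, run from 250 bases before to 50 after the start and are written 5′ to 3′ on the strand of the gene. Capitals mark matches on either strand to GGAATG, which reads CATTCC on the other strand and is the core that TEAD factors bind as partners of YAP. The letters ACGTG (the core of hypoxia response elements) and TGANTCA (AP-1), which were also searched on both strands, gave no match in these windows, and no match overlapped another.
Ntn4 promoter, chr10:93640799-93641098, plus strand: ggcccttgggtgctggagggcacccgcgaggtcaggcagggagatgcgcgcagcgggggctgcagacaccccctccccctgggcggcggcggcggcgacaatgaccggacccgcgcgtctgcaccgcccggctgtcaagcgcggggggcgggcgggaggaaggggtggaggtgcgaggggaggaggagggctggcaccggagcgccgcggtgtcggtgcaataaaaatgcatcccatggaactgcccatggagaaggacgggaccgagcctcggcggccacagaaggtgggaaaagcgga
Epha2 promoter, chr4:141300971-141301270, plus strand: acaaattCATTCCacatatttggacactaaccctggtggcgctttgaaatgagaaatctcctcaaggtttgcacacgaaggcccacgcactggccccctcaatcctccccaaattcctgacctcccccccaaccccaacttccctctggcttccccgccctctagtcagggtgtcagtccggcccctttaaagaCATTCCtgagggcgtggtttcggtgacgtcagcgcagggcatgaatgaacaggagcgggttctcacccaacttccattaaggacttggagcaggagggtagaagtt
Plxnd1 promoter, chr6:115994956-115995255, minus strand: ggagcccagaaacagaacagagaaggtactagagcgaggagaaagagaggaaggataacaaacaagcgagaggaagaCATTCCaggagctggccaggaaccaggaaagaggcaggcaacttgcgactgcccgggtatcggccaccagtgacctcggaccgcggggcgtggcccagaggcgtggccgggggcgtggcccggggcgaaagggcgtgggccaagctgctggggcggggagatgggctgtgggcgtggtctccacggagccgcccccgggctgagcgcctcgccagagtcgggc
Efna1 promoter, chr3:89280902-89281201, minus strand: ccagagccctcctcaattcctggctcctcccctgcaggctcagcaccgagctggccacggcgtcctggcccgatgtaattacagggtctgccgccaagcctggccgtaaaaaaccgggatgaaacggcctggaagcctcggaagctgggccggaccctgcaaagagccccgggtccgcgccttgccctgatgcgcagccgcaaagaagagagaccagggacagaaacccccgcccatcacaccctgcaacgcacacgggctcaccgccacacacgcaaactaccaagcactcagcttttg

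In these windows Epha2 held 2 matches to the TEAD letters and Plxnd1 held 1, and both genes were on opposite sides of 0 (-0.56 and 0.42). Ntn4 and Efna1 held none. The window of Ntn4 had 72.0% G and C and 31 CpG, that of Epha2 54.7% and 10, that of Plxnd1 67.0% and 23, and that of Efna1, the first of 2 listed promoters, 63.7% and 20. Of 63 members 54 had a promoter in the table, with a median of 64.7% G and C (41.3% to 84.3%) against 52.7% over 27025 promoters of all genes. The TEAD letters were in 11.1% of member promoters and 14.6% of all promoters, the hypoxia letters in 20.4% and 19.7%, and the AP-1 letters in 3.7% and 7.93%. A match to these letters describes the sequence and does not show a bound site.

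Netrins are secreted, laminin-related cues. Netrin 4, which also binds laminin and sits in basement membranes, gave 7.54 in wild-type and 6.85 in knockout cells. That was a difference of -0.69, or 1.62-fold lower, and 35 of the 15072 tested genes had a lower one. The classical cue netrin 1 was at 6.71 and 6.54 (-0.17). Ntn5, a further netrin, was at 5.29 and 5.35 (0.05). Ntn3, on a cluster shared with Tbc1d24 and so outside the rule, was at 5.32 and 5.24.

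Receptors of netrins were split between lower and higher. Unc5b, which transmits repulsion and is known from vessel growth, gave 8.49 in wild-type and 8.26 in knockout cells (-0.23). Unc5c, a further repulsive receptor, was at 5.47 and 5.28 (-0.19). DCC, the attractive receptor, was dim at 3.04 and 3.10, below the olfactory receptor floor. Of the 5 tested netrin and netrin receptor genes 4 were lower, with a median of -0.19, where 39.9% of all tested genes were lower. The direction of these 4 was kept under quantile normalization and loess centring. The symbol rule leaves out the receptors Unc5a (0.31) and Neo1 (0.37), both tested and higher, and Unc5d, which was dim. With these receptors added 4 of 7 tested genes were lower and 3 higher. Their median was -0.17, and over 9 genes with dim ones included the median was -0.06.

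Partners of Slits, Robos and netrins were split to both sides. A list of 39 Slit-Robo and netrin partners was written from general knowledge, 34 of them were matched and 27 tested, of which 16 were higher and 11 lower (59.3% higher, where 56.9% of all tested genes were). With dim partners included 16 of 34 were higher and 18 lower, and the tested ones were 12 higher and 15 lower by quantile normalization and 13 and 14 by loess centring. Their median of 0.03 was -0.03 with dim partners included, and -0.01 by quantile normalization as by loess centring. None was past 0.5, where 1.97% of all tested genes were. Its largest differences were in Draxin, a secreted netrin and DCC antagonist (5.11 to 5.59, 0.47), and in Neo1, which encodes neogenin, a DCC relative that binds netrins and repulsive guidance molecules (8.68 to 9.04, 0.37). Rgma, a repulsive guidance molecule that is also a BMP co-receptor, went from 7.47 to 7.80 (0.33), and the netrin receptor Unc5a from 6.04 to 6.35 (0.31).

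EphA2 and its ligand ephrin-A1 stood toward opposite ends. Epha2, a receptor tyrosine kinase common in epithelial and vascular cells, gave 6.16 in wild-type and 5.60 in knockout cells (-0.56, 1.47-fold lower), and 80 tested genes had a lower difference. Efna1, the ligand best known for binding EphA2, was at 5.05 and 5.42 (0.37, 1.29-fold higher), and 397 tested genes had a higher one. Both directions were kept under quantile normalization and loess centring, with Epha2 between -0.59 and -0.56 and Efna1 between 0.35 and 0.37.

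Other EphA receptors had smaller differences. Epha1 was lower, at 5.63 and 5.31 (-0.32). Epha3, a receptor of mesenchymal cells, was at 6.46 and 6.59 (0.13), and Epha4, which binds ephrins of both kinds, was at 6.30 and 6.31. Epha8 (5.07 and 5.08) and Epha10 (5.17 and 5.22), a receptor thought to lack kinase activity, differed little. Epha7 (4.39 and 4.54), Epha5 (3.10 and 2.97) and Epha6 (3.02 on both arrays) were dim, and the last of these had identical values to every digit. Of the 6 tested EphA genes 4 were higher and 2 lower, where 56.9% of all tested genes were higher. That split was 2 to 4 under quantile normalization and 3 to 3 under loess centring. The median of these 6 genes was 0.01 and became -0.01 with either quantile normalization or loess centring.

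The A-type ephrins, which are anchored by a lipid tail, were split by gene although 3 of them are neighbours. In the RefSeq order of coding genes on chromosome 3, Efna1, Efna3 and Efna4 follow each other with no gene between. Efna1 was higher as given above, Efna3 lower (6.95 to 6.68, -0.27) and Efna4 the same within rounding (6.60 on both arrays). Efna2 was at 6.35 and 6.48 (0.13) and Efna5 at 6.39 and 6.29 (-0.10). The adjoining ephrin genes therefore shared no direction.

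B-type receptors and ligands differed little. Ephb3 was the highest EphB gene by difference, at 7.03 and 7.28 (0.25), and Ephb4, the venous receptor of the vessel wall, was at 7.40 and 7.51 (0.11). Ephb6, which lacks kinase activity, was at 5.63 and 5.70 (0.07). Their transmembrane ligands Efnb1 (8.50 and 8.63, 0.13), Efnb2 (7.85 on both arrays) and Efnb3 (5.85 and 5.83) followed no common direction.

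Ephb1 rests on a cluster numbered with the opposite strand. Cluster numbers of this array run along 1 strand of a chromosome and then along the other: of 18084 clusters checked against the strand of their RefSeq promoter, 98.5% followed that order. The Ephb1 cluster with the higher signal (5.77 on both arrays) lies among the plus-strand numbers, while the RefSeq promoter of Ephb1 is on the minus strand. It was the only 1 of 54 member clusters with a known promoter strand for which the strands differed. The second Ephb1 cluster, among minus-strand numbers, was dim at 3.93 and 3.87 (-0.06). With it in place of the first, 3 of 3 tested EphB genes were higher, where 56.9% of all tested genes were.

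Proteins that carry Eph signals showed no member past 0.5. The list held 34 ephrin-Eph partners, of which 32 were matched and 25 tested, and 1.97% of all tested genes were past 0.5. The tested partners were 13 higher and 11 lower (52.0% higher, where 56.9% of all tested genes were), and 10 to 15 by either scaling. Their median was 0.02 (-0.04 by quantile normalization and -0.02 by loess centring). Pdzrn3, a ubiquitin ligase with PDZ domains, was at 7.95 and 8.19 (0.24), and Itsn1, an exchange factor for the GTPase Cdc42, at 7.25 and 7.49 (0.24). The largest sizes were in dim genes, Anks1b (4.30 to 3.98, -0.32) and Chn1 (4.26 to 4.02, -0.24), a GTPase-activating protein that acts downstream of EphA4.

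Semaphorins of class 3, the secreted ones, leaned lower. Of 7 members 6 were lower, where 47.4% of all named genes were. Of the 5 tested ones 4 were lower, where 39.9% of all tested genes were. The median was -0.04 over tested members and -0.12 over all 7. Sema3a, the collapse factor of axons that also acts on bone cells, was at 4.72 and 4.33 (-0.38) and just dim. Sema3d was at 5.00 and 4.80 (-0.19), and Sema3e, the ligand of plexin D1, was at 4.01 and 3.71 (-0.29) with a mean below the olfactory receptor floor. These 3 genes are close together on chromosome 5, with no coding gene between Sema3d and Sema3a and 3 between Sema3a and Sema3e.

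The remaining class 3 genes were nearer 0. Sema3c, which acts in heart and vessel development, was at 7.71 and 7.69. Sema3b was at 6.11 and 6.07, and Sema3f, a ligand of neuropilin 2, at 6.38 and 6.26 (-0.12). Sema3g, at 4.75 and 4.81, was the only higher one. Under quantile normalization and under loess centring the tested genes kept the same split of 1 higher and 4 lower.

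Membrane-bound semaphorins stayed near 0. Their median size of difference was 0.05 over 11 tested genes, against 0.06 over 5 tested secreted ones and 0.09 over all tested genes. With dim genes included it was 0.04 over 12 genes, against 0.12 over the 7 secreted ones. The 12 members of classes 4 to 7 ranged from -0.08 (Sema6d) to 0.16 (Sema4b). Higher were 7 of 11 tested members (all tested genes 56.9%), and 6 of 11 under quantile normalization and under loess centring. Sema4b was at 6.29 and 6.46, Sema5a at 4.76 and 4.92 (0.16) and Sema4g at 5.35 and 5.50 (0.15). Sema7a, a lipid-anchored form that binds integrins and plexin C1, was at 6.69 and 6.72, and Sema4d, an inhibitor of bone formation made by osteoclasts, at 4.80 and 4.81. Sema4c (6.16 and 6.12), Sema6a (4.66 and 4.76), Sema6b (5.31 and 5.34), Sema6c (5.40 and 5.35) and the dim Sema4f (4.52 and 4.54) differed by at most 0.10, and Sema5b had 5.35 on both arrays to every digit. Sema4a, outside the rule because its cluster also lists a microRNA, was at 4.96 and 5.02.

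Plexins, the receptors of semaphorins, were mostly higher, led by plexin D1. Plxnd1, known from vessel patterning, gave 7.40 in wild-type and 7.82 in knockout cells (0.42, 1.34-fold higher), and 272 tested genes had a higher difference. Plxnc1, the receptor of semaphorin 7A, was at 5.27 and 5.54 (0.26) and Plxna4, a partner of neuropilins, at 5.74 and 5.98 (0.25). Plxna1 was the lowest plexin by difference, at 9.29 and 9.13 (-0.16). Of 8 tested plexins 6 were higher and 2 lower, also under quantile normalization and loess centring, with a median of 0.06, and 56.9% of all tested genes were higher.

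The B-type plexins and the rest were near 0. Plxnb2 was at 9.03 and 9.02, Plxnb1 at 5.17 and 5.21, and Plxnb3 was dim with 4.11 on both arrays to every digit. Plxna2 was at 6.40 and 6.45 and Plxna3 at 5.70 and 5.78. The neuropilin co-receptors were as even: Nrp2 was at 7.37 and 7.39, and Nrp1, on a cluster shared with a microRNA and outside the rule, at 7.74 and 7.66.

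**Figure D2:**
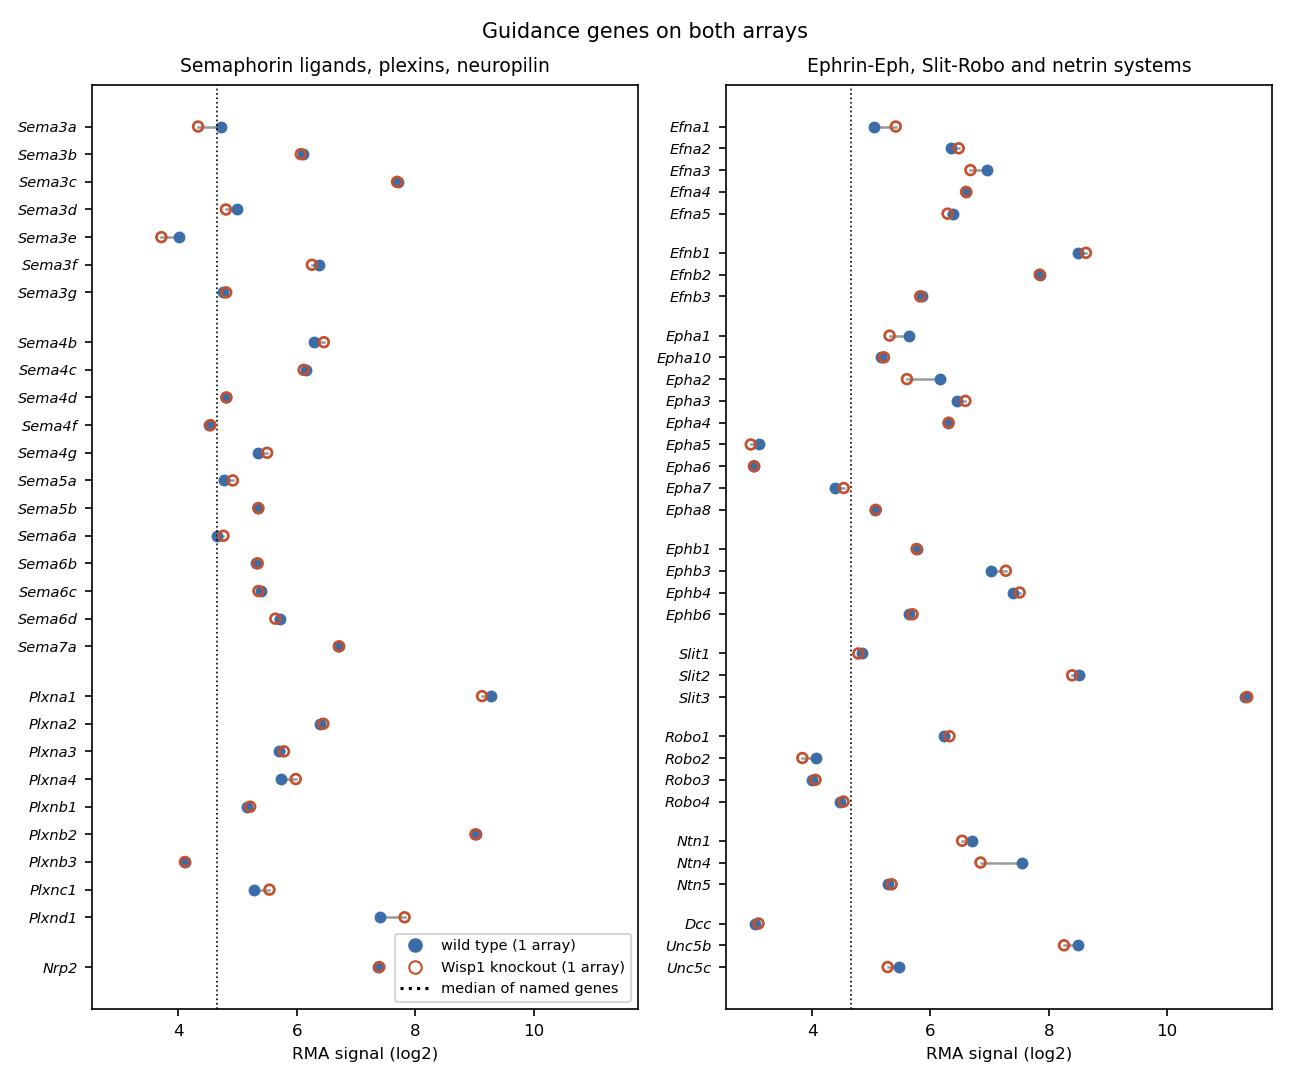
RMA signal (log2, horizontal axis) of each of the 63 guidance genes on the wild-type array (filled) and on the Wisp1 knockout array (open), 1 array each, with a dotted line at the median of named genes, 4.65. Most symbols coincide, while Ntn4 (7.54 and 6.85), Epha2 (6.16 and 5.60) and Plxnd1 (7.40 and 7.82) are visibly apart.

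Markers of endothelium, where plexin D1 is known to act, were mostly dim. In a bulk sample, fewer cells of a type and less RNA per cell cannot be told apart. Of 14 endothelial markers 9 were higher and 5 lower, where 47.0% of all named genes were higher. The summed linear signal of the list was 297 in wild type and 320 in the knockout. Of the 5 tested ones 2 were higher and 3 lower, where 56.9% of all tested genes were higher. The median of these 5 was -0.01, and Tek was the lowest (5.61 to 5.47, -0.14). Cdh5 was at 3.81 and 4.62 (0.80) and Emcn at 3.24 and 4.04 (0.80), both dim, while Pecam1 (3.56 and 3.64) and Kdr (3.49 and 3.56) were below the olfactory receptor floor on both arrays. Robo4, an endothelial member, was dim at 4.47 and 4.53. The part of these cells in the plexin D1 difference was not tested.

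Macrophage markers were mostly higher. Of 15 macrophage markers 11 were higher and 3 lower, where 47.0% of all named genes were higher. Lyz2 was highest by difference (6.14 to 7.43, 1.29) and Cd14 lowest (4.90 to 4.72, -0.18). Past 0.5 as higher were 5 of the 15, where 0.69% of all named genes were, and none was past it as lower. Beside Lyz2 these were Fcer1g (0.90), the dim Ctss (0.63), Cd68 (0.58) and Tyrobp (0.51). Of the 8 tested markers 7 were higher and 1 lower, where 56.9% of all tested genes were higher. The summed linear signal of the list was 417 and 620, and Lyz2 made the largest part of that rise. The defining genes Adgre1 (3.33 and 3.25), Itgam (3.69 and 3.78) and Ptprc (2.86 on both arrays) lay below the olfactory receptor floor. Plxnc1 is also made by myeloid cells, and their part in its difference was not tested.

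Beside the lower members stood lower markers of vessel wall cells. Of 10 pericyte and smooth muscle markers 7 were lower and 3 higher, where 47.4% of all named genes were lower. Mcam was lowest by difference (8.51 to 7.82, -0.69) and Des highest (4.90 to 5.30, 0.41), while Kcnj8 (3.85 and 3.69) was below the floor. The summed signals of 10531 and 9449 came mostly from Acta2 (12.83 and 12.70, -0.13) and Tagln (11.18 and 11.07, -0.12). Of 6 mesothelial markers 2 were lower, 3 higher and 1 equal, with a median of 0.01. Their sums were 166 and 145, a drop that came from Upk1b, the lowest (5.35 to 4.25, -1.11), while Msln (3.64 and 3.66) was below the floor. Netrin 4 is found in vessel walls, and the part of such cells in its difference was not tested.

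The other marker lists held genes on both sides of 0, where 47.0% of all named genes were higher and 47.4% lower. Of 12 Schwann cell and neuronal markers 4 were higher and 6 lower, with sums of 540 and 594, Ngfr highest (6.36 to 6.81, 0.45) and S100b lowest (5.21 to 5.06, -0.15). Of 10 mature adipocyte markers 4 were higher and 6 lower, with sums of 272 and 244, Cidea highest (4.35 to 4.43) and Retn lowest (4.90 to 3.81, -1.08), and Adipoq was dim at 4.50 and 3.86 (-0.64). Of 8 lymphocyte markers 3 were higher and 5 lower, with sums of 121 and 119, Cd79a highest (3.63 to 3.92) and Ms4a1 lowest (2.93 to 2.69), and none was tested. Stromal progenitor markers were split, 9 higher and 6 lower with sums of 11381 and 12963, from Dlk1 (7.03 to 6.45, -0.58) to Lum (4.79 to 5.39, 0.60).

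Semaphorin partners held 1 gene past 0.5. The list had 34 genes, of which 31 were matched and 26 tested. That 1 gene was 3.85% of the tested partners, and 1.97% of all tested genes were past 0.5. The tested partners were 12 higher and 13 lower (46.2% higher, where 56.9% of all tested genes were), with a median of -0.01. The split was 11 to 15 by quantile normalization and 12 to 14 by loess centring, with medians of -0.03 and -0.02. Nrcam, an adhesion molecule that helps carry semaphorin signals through neuropilins, was at 5.05 and 4.42 (-0.63). Rras2, a GTPase of the R-Ras group on which plexins act, was at 8.16 and 7.70 (-0.46), and Met, a receptor kinase that associates with B-type plexins, at 5.24 and 4.81 (-0.42). Of the Rnd GTPases that bind plexins, Rnd1 was lower (6.00 to 5.62, -0.38) and Rnd3 higher (8.35 to 8.70, 0.35).

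**Figure D3:**
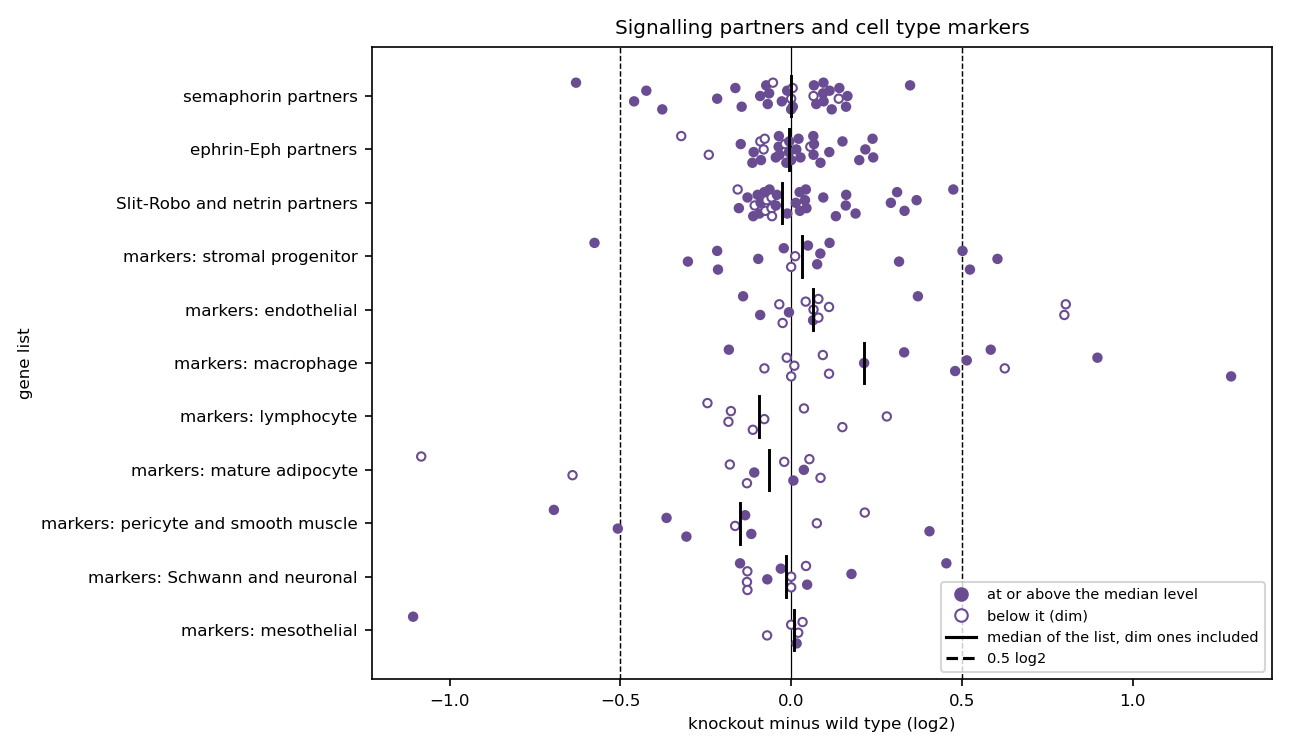
Knockout minus wild-type difference (log2, horizontal axis) of each matched gene in the 3 lists of signalling partners and the 8 lists of cell type markers, with filled points for tested and open points for dim genes and a bar at the median of each list. Nrcam (-0.63) is the only partner past 0.5, and the macrophage list has the highest median (0.21).

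Slits and Robos were even across the arrays. Slit3, a secreted cue of fibroblasts and bone-forming cells, was at 11.31 and 11.35, a difference of 0.04 that was just below 0 under loess centring. Slit2 was at 8.51 and 8.40 (-0.11) and Slit1, a mainly neural form, at 4.85 and 4.78 (-0.07). Robo1, the receptor of Slits in many tissues, was at 6.23 and 6.32 (0.09), and Robo2, its neighbour on chromosome 16 with no coding gene between them, was dim at 4.07 and 3.84 (-0.24). Robo3 was dim as well (4.01 and 4.06). Robo2 had the largest size of difference in this system.

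**Figure D4:**
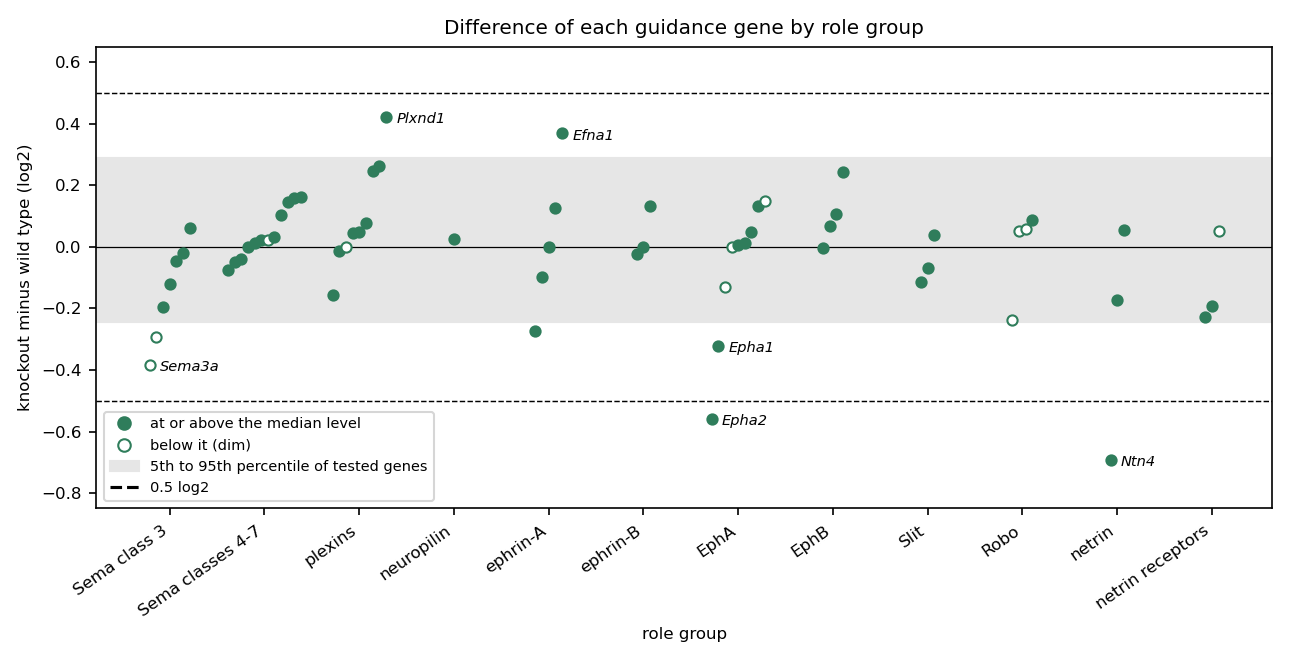
Knockout minus wild-type difference (log2, vertical axis) of the 63 guidance genes by role group (horizontal axis), with filled points for tested and open points for dim genes. The grey band holds the 5th to 95th percentile of tested genes (-0.24 to 0.29), and Ntn4 and Epha2 lie below the dashed line at -0.5.

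Ligands and receptors as classes differed little from each other. Of all tested genes 56.9% were higher, 48.4% by quantile normalization and 50.2% by loess centring. Among 30 tested ligands 15 were higher and 14 lower, 12 and 18 by quantile normalization and 11 and 19 by loess centring. Their median of 0.00 was -0.04 by either scaling. Among 22 tested receptors 15 were higher and 7 lower, 12 and 10 by quantile normalization and 13 and 9 by loess centring. Their median of 0.05 was 0.02 by quantile normalization and 0.03 by loess centring. The difference between ligands and receptors was not tested. By system, the median over tested members was 0.03 for semaphorins with plexins and neuropilin 2 (25 genes), and -0.01 for Slits and Robos (4 genes). It was 0.01 for ephrins and Ephs (18 genes), or -0.01 by either scaling, and -0.19 for netrins with the receptors in the rule (5 genes), which leaves out the higher Unc5a and Neo1. Members just inside the tested set were Sema6a (mean 4.71) and Sema3g (4.78), and those just outside it were Sema4f (4.53) and Sema3a (4.52).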

How the data were processed

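Total RNA of 1 wild-type and 1 Wisp1 knockout culture was extracted with TRIZOL and labelled with the Affymetrix GeneChip WT PLUS kit, per the labels' protocols. The authors deposited log2 values, 1 per transcript cluster, which RMA in Partek had produced, per the submitters' processing notes. Versions, the arrays normalized together and the build of the array design are not given in the sources used here. Their range shows the log2 scale (1.88 to 13.62 in wild type, 1.74 to 13.65 in the knockout), and medians were 3.93 and 3.92.

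Of 65956 clusters 30604 had 1 gene symbol, 2146 several and 33206 none. Entrez IDs found in the RefSeq table of GRCm38.p6 (22818 clusters) gave current symbols, and the cluster with the highest mean was kept per gene. No further normalization was applied. All members may be named. The plan asked for both values of members past 0.5 log2, the 8 highest and 8 lowest tested members and the brightest of each role group. It also asked for those of the largest partner differences, and both values of most other members were given too. Members and lists were chosen with earlier results of these data known. The 2-fold call was checked on simulated data, with planted differences larger than that limit. Calls at 0.5 log2 and at 1.5-fold were not checked in this way. With 1 array per group there is no test, and the number of arrays limits the precision. Python 3.11.15, numpy 2.4.6, pandas 2.3.3, statsmodels 0.14.6 (loess, span 0.3) and matplotlib 3.10.9 were used.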

Additional observations from a re-analysis of the deposited data

How the results depend on the processing

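Results were recomputed with no filter, with a filter on the brighter array, with the olfactory receptor floor, after centring on the median, quantile normalization or loess centring, with the mean over clusters of a gene, with clusters of several symbols kept, with means for medians and with a 1.5-fold limit. The other Ephb1 cluster and the addition of Neo1, Unc5a and Unc5d to the netrin receptors were chosen after seeing the data. Of 361 recomputed values 358 stayed within 0.1 log2 of the reported value or within 1.5 times the reported count. Many could not move, since filters leave the difference of a single gene unchanged, and 0.1 is larger than most of the medians. A sign change was labelled only for values of at least 0.5 in size, those of Ntn4 and Epha2, which kept their sign. Medians of smaller size changed sign in some setting for all members, neuropilins, ephrin-A, ephrin-B, EphA and netrin receptors. So did those of the ephrin-Eph and of the Slit-Robo and netrin partner lists. The count of members past the smaller limit went from 2 to 1 at 1.5-fold, where Epha2 no longer passed and Ntn4 did. The EphA group was at -0.11 by the mean, against a median of 0.01. The netrin receptors had a median of -0.21, and of 0.059 with the added receptors. All 16 members with the highest and lowest differences kept their sign under quantile normalization and loess centring, with Ntn4 from -0.73 to -0.69. The other settings could not alter the difference of these members and left it as it was. Among all 63 members 7 changed sign under quantile normalization or loess centring, none with a reported size over 0.04. The median over tested members was 0.01 as reported and -0.01 under both of those scalings. Centring on the median changed nothing, since the median difference of named genes was 0. No paired analysis was possible because each genotype has 1 sample. Dim genes lie near the signal of genes this tissue is not known to use, which limits what can be read from Dcc, Epha5, Epha6 and Sema3e.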
